A study of Homo sapiens with 6 samples.

Results

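Pyruvate dehydrogenase kinases (PDK1, PDK2, PDK3 and PDK4) and pyruvate dehydrogenase phosphatases (PDP1 and PDP2) were followed in SNU-449 cells, a long-established line from a human hepatocellular carcinoma. These 6 genes, of 58219 gene identifiers counted, were taken by name as the enzymes that phosphorylate and dephosphorylate the pyruvate dehydrogenase (PDH) complex. They were picked with their difference between the groups already known, so that difference is given below as a description, without a test. Polyadenylated RNA was sequenced from 3 libraries of a stable line carrying wild-type Yes (Yes WT) and 3 of a stable line carrying Yes T348I, a form of this SRC family tyrosine kinase changed at its gatekeeper residue. Every library, controls included, was from cells under dasatinib at 100 nM, which blocks ABL and the SRC family, so the design asks what differs between the lines in the presence of the drug. The labels do not say whether a line is a clone or a pool, nor whether its 3 libraries came from separate cultures, so p-values reflect a spread among libraries that could be purely technical.

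The PDH complex sits in the mitochondrial matrix and turns pyruvate into acetyl-CoA, which joins glycolysis to the tricarboxylic acid cycle. PDK enzymes phosphorylate its E1 alpha subunit and switch it off, and PDP enzymes remove the phosphate and switch it on again. The kinases differ in their control: PDK1 is a well-known target of hypoxia-inducible factor (HIF), PDK2 is widely expressed, and PDK4 is the fasting-responsive form, driven in liver and muscle by FOXO factors, peroxisome proliferator-activated receptors (PPAR) and glucocorticoids. Only messenger RNA was measured here, not enzyme protein or the phosphorylation of the complex.

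In short, PDK4 mRNA was lower in Yes T348I than in Yes WT to 0.373 of its level, PDP1 to 0.662, PDK2 to 0.715 and PDP2 to 0.794. PDK3 and PDK1 had ranges that overlapped between the lines. Lower messages were thus found among the kinases, for PDK4 and PDK2 only, and for both phosphatases. PDK4 was the largest kinase message in Yes WT, and in Yes T348I it was level with PDK2 or below PDK1 and PDK2, depending on the gene length used.

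Gene counts totalled 14360137 to 19608763 per library. All 6 members passed the filter on low counts, which kept 14723 genes, and levels are given as CPM, read counts relative to the library total, scaled by the trimmed mean of M values (TMM). The lines differed widely: 55.3% of genes tested passed an adjusted p of 0.05 (edgeR quasi-likelihood test with Benjamini-Hochberg adjustment), with 28% higher and 27.3% lower in Yes T348I, and in 59.5% of genes the groups did not overlap. YES1, the gene of the introduced kinase, was at 357, 368 and 367 CPM in Yes WT and 383, 411 and 435 CPM in Yes T348I. It rose by 0.17 on the log2 scale (SE 0.04, edgeR adjusted p = 9.94e-05), and gene counts do not show the mutation. Nor do they tell the introduced YES1 from the cell's own, and no library was from a line without the introduced gene. The 8 hepatocyte markers summed to only 3.60 to 4.71 CPM in Yes WT and 1.51 to 3.54 CPM in Yes T348I, with ALB at no more than 10 counts and APOA1, APOB and TTR at no more than 2 in any library. Of the 2 with enough counts to test, TF fell from 2.19 to 0.785 CPM (edgeR adjusted p = 0.000158) and SERPINA1 was at 0.847 and 0.973 CPM. The 4 epithelial markers summed to 424 to 440 and 411 to 452 CPM, nearly all of it from the keratins KRT8 (172 and 163 CPM) and KRT18 (258 and 261 CPM). CDH1, or E-cadherin, was low and fell from 3.35 to 1.47 CPM (edgeR adjusted p = 8.47e-06), and EPCAM had at most 11 counts in any library. Of the leukocyte markers CD3E had no count, and the summed level of the 5 leukocyte markers was 2.35 to 3.01 CPM in Yes WT and 0.564 to 1.33 CPM in Yes T348I. Most of that sum was CD14, which fell from 2.43 to 0.721 CPM (edgeR adjusted p = 5.09e-06) on at most 41 counts in any library. The 4 endothelial markers summed to 1.14 to 1.53 and 0.480 to 0.564 CPM, and the 4 fibroblast and stellate markers to 0.306 to 0.669 and 0.308 to 0.754 CPM. Among the endothelial markers PECAM1 fell from 0.847 to 0.194 CPM (edgeR adjusted p = 0.000509) on at most 16 counts in any library. The 3 cholangiocyte markers KRT7, KRT19 and SOX9 summed to 397 to 428 and 712 to 799 CPM. Nearly all of it came from KRT7, which rose from 310 to 603 CPM (edgeR adjusted p = 2.34e-24), and SOX9, which rose from 106 to 149 CPM (edgeR adjusted p = 4.48e-14). KRT19 was nearly absent, at 0.943 and 0.985 CPM with at most 17 counts in any library. The part of these markers in the results on the members was not tested, and in bulk RNA fewer cells of a type and less RNA per cell cannot be told apart.

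The stretch just before the start of PDK4 is shown because this gene differed most. It comes from RefSeq (GRCh38.p14), at chr7:95596517-95596766 on the minus strand, and is the 250 bases that end at the base before the start site, 5′ to 3′. It overlaps an exon of a non-coding gene but none of a protein-coding gene.

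PDK4: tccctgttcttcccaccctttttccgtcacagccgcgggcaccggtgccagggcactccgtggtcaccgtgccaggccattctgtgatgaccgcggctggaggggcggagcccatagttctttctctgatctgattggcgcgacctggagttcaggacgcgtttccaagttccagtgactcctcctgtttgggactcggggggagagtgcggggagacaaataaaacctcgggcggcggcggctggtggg

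Windows of 300 bases (250 before and 50 after a start) were searched on both strands for 6 motifs. The core of the HIF site was spelled ACGTG, and the E-box, which contains that core, was CACGTG. The FOXO motif was spelled TGTTTAC, and the motif of estrogen-related receptors was TNAAGGTCA. The TEAD motif was spelled GGAATG, and the AP-1 motif was spelled TGANTCA. RefSeq windows were found for PDK1, PDK2, PDK3, PDK4 and PDP2, and not for PDP1. The PDK4 window held none of the 6 motifs, which says only that these letters are not in it. The other 4 genes each had a window with ACGTG, though PDK1 and PDK2 have several windows each and other windows of theirs lacked it. Counted by window and not by gene, 21.4% of all 35116 windows held ACGTG. These stretches of 30 bases show where, with motif bases in capitals. A match on the other strand reads CACGT.

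PDK1: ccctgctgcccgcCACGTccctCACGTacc

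PDK2: cgggggaagcCACGTGccggggcggaaggc

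PDK3: cgcgccgcgtACGTGcagcaaccgactccg

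PDP2: cgatctcaggCACGTGactgcctggtcctg

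The PDK1 stretch (chr2:172556060-172556089, plus strand) lies directly before the second of its 2 RefSeq starts, inside an exon of a longer transcript, and holds ACGTG 2 times. In PDK2 (chr17:50095212-50095241, plus strand) and PDP2 (chr16:66880308-66880337, plus strand) the match is the E-box CACGTG, found in 7.26% of all windows. PDP2 has 1 more ACGTG match a little further upstream. The PDK3 stretch is at chrX:24465215-24465244 on the plus strand, and 24 of its 30 bases lie inside an annotated exon of PDK3. The same PDK2 window also held 1 GGAATG, a motif in 14.0% of windows. FOXO, estrogen-related receptor and AP-1 motifs, in 3.42%, 0.951% and 7.71% of all windows, were in none of the members' windows. The ACGTG core was thus found in PDK2 and PDP2, which were lower in Yes T348I, and in PDK1 and PDK3, whose groups overlapped. The matches are a description of these windows only.

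PDK4 (ENSG00000004799.7, GRCh38 chromosome 7, 95583499 to 95596491, minus strand) is the isoform linked to fasting and to a switch towards fat as fuel. It stood at 35.0, 34.7 and 33.8 CPM in the 3 Yes WT libraries and at 13.8, 11.8 and 12.8 CPM in the 3 Yes T348I libraries. All 3 Yes T348I libraries lay well below the lowest Yes WT library. The means were 34.5 ± 0.615 and 12.8 ± 0.999 CPM (SD, n = 3 each), which is -1.42 as a log2 fold change (SE 0.07). As low a log2 fold change or a lower one was seen in 157 of the 14723 genes tested (1.07%), PDK4 included.

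PDK2 (ENSG00000005882.11, chromosome 17, 50094737 to 50112152, plus strand) is the kinase found in most tissues. Its values were 23.3, 21.6 and 20.7 CPM in Yes WT and 15.6, 17.0 and 14.4 CPM in Yes T348I. The groups did not overlap, though the libraries of each line were more spread than those of PDK4 in Yes WT. The log2 fold change was -0.48 (SE 0.08). PDK2 shares 2113 exon bases with SAMD14 on the opposite strand, and 60.9% of the 50-base stretches of its longest coding transcript are also found in SAMD14 transcripts. Counting by strand keeps the pair apart, and SAMD14 had at most 7 counts in any library.

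PDK3 (ENSG00000067992.12, chromosome X, 24465221 to 24541862, plus strand), a kinase gene of the X chromosome, had the lowest CPM of the 6. It measured 9.59, 10.5 and 11.6 CPM in Yes WT and 8.97, 9.74 and 8.74 CPM in Yes T348I, on 124 to 175 counts per library. The second Yes T348I library lay above the lowest Yes WT library, so the groups overlapped. The log2 fold change was -0.21 (SE 0.10), and with 1 library left out it lay between -0.28 (without Yes WT replicate 1) and -0.13 (without Yes WT replicate 3).

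PDK1 (ENSG00000152256.13, chromosome 2, 172555373 to 172608669, plus strand), the HIF-responsive kinase, measured 21.6, 22.7 and 21.4 CPM in Yes WT. In Yes T348I it measured 22.6, 22.1 and 22.7 CPM. The ranges lay on top of each other. Its log2 fold change of 0.04 (SE 0.07) was between 0.02 and 0.06 with any 1 library left out, and its sign flipped to -0.0042 with upper quartile factors and -0.00079 with library size only. An antisense gene, PDK1-AS1, shares 445 exon bases with it and had at most 18 counts in any library.

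PDP1 (ENSG00000164951.15, chromosome 8, 93857807 to 93926066, plus strand) encodes the calcium-sensitive PDH phosphatase and had the highest CPM of the 6. It was at 146, 149 and 152 CPM in Yes WT and at 96.6, 99.99 and 99.8 CPM in Yes T348I. The gap between the groups was many times the spread within either. Means of 149 ± 3.08 and 98.8 ± 1.92 CPM (SD, n = 3 each) gave a log2 fold change of -0.59 (SE 0.04), and 9.64% of genes tested were lower by as much or more.

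PDP2 (ENSG00000172840.6, chromosome 16, 66878589 to 66895754, plus strand), the other phosphatase, had the narrowest spread in Yes WT, with 59.0, 59.2 and 59.99 CPM. In Yes T348I it was at 46.5, 48.4 and 46.8 CPM, all below the lowest Yes WT value. The log2 fold change was -0.33 (SE 0.05), the smallest among the 4 members whose groups did not overlap.

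**Figure D1:**
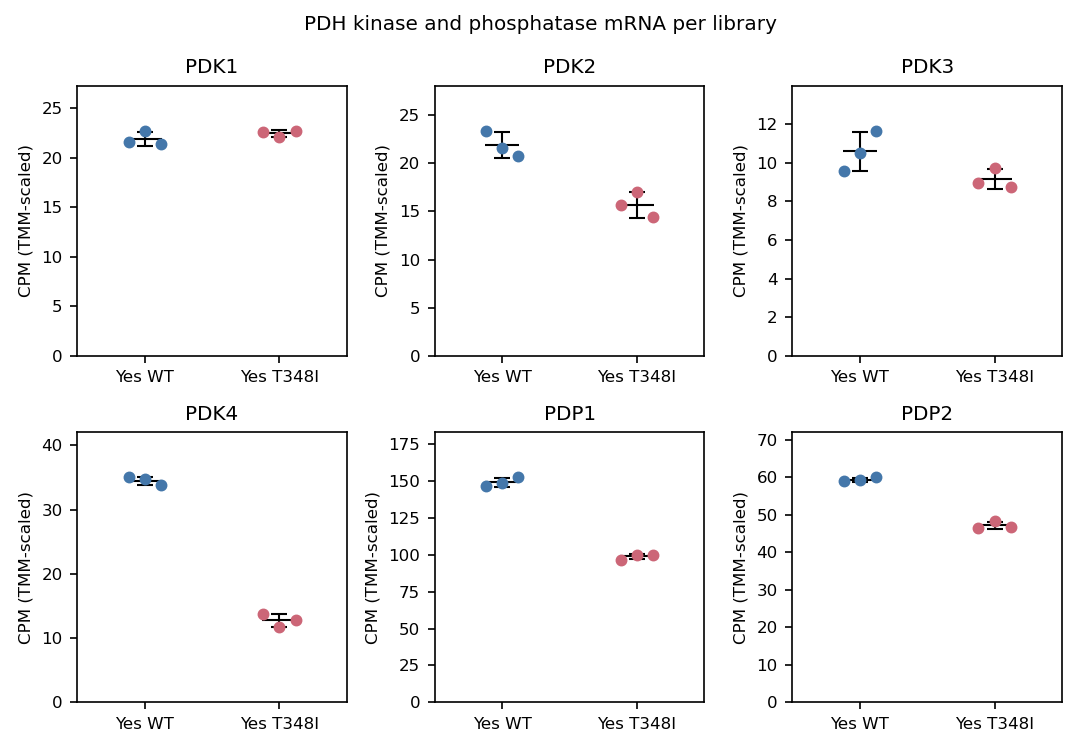
TMM-scaled CPM (y axis, from 0, a different scale in each panel) of the 6 members in each library, Yes WT in blue and Yes T348I in red, with the mean and SD of 3 libraries in black. The groups are apart for PDK2, PDK4, PDP1 and PDP2 and overlap for PDK1 and PDK3.

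In 4 of the 6 members the groups did not overlap and Yes T348I was the lower one, as in 29.7% of all genes tested. Nothing is read from this count, since the members were picked from this contrast. The median log2 fold change was -0.41 over the members and -0.01 over all genes tested.

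Levels of different genes were compared per kilobase of joined exons. In Yes WT the order was PDP1 at 26.6 ± 0.549 CPM per kilobase (SD, n = 3), PDK4 at 7.64 ± 0.136, PDP2 at 7.10 ± 0.0602, PDK2 at 3.99 ± 0.243, PDK3 at 2.14 ± 0.207 and PDK1 at 1.47 ± 0.0466. No neighbours in that order overlapped. In Yes T348I PDP1 still led at 17.6 ± 0.342 CPM per kilobase, followed by PDP2 at 5.65 ± 0.118, PDK2 at 2.86 ± 0.240, PDK4 at 2.83 ± 0.221, PDK3 at 1.85 ± 0.105 and PDK1 at 1.51 ± 0.0218. There PDK2 and PDK4 overlapped and could not be ordered. The place of PDK1 depends on the length used, because its annotated exons join to 14883 bases around a coding sequence of 1368 bases. Per kilobase of the longest coding sequence PDK1 was at 16.02 ± 0.507 CPM in Yes WT, between PDK2 at 17.9 ± 1.09 and PDK3 at 8.50 ± 0.822. By that length it was the highest kinase in Yes T348I, at 16.4 ± 0.237 against 12.8 ± 1.08 for PDK2, 10.4 ± 0.810 for PDK4 and 7.35 ± 0.419 for PDK3. PDP2 then ranked above PDK4 in Yes WT, at 37.4 ± 0.317 against 28.0 ± 0.499.

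As a share of the 4 kinase messages per joined exon length, PDK4 made up 50.3%, 50.3% and 49.7% in the Yes WT libraries and 33.1%, 28.5% and 32.4% in the Yes T348I libraries. The share of PDK1 was 9.66% ± 0.288 in Yes WT and 16.7% ± 0.656 in Yes T348I (SD, n = 3 each), that of PDK3 14.0% ± 1.52 and 20.4% ± 0.943, and that of PDK2 26.2% ± 1.32 and 31.6% ± 2.03. Shares add up to the whole, so the higher shares of the other 3 kinases do not show more of their messages. Per coding length PDK4 went from 39.8% ± 0.220 to 22.1% ± 1.73 and PDK1 from 22.7% ± 0.596 to 34.9% ± 1.15, while the libraries of the 2 lines overlapped for PDK2. The summed kinase message was 40.6% lower in Yes T348I per joined exon length and 33.3% lower per coding length, and PDK4 accounted for 77.6% and 75.1% of that drop.

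The summed phosphatase message was 30.9% lower per joined exon length and 29.8% lower per coding length. PDP1 made up 78.9% ± 0.207 of it in Yes WT and 75.7% ± 0.304 in Yes T348I. The ratio of summed kinase to summed phosphatase message was 0.464, 0.454 and 0.438 in Yes WT and 0.405, 0.388 and 0.374 in Yes T348I, and those ranges did not overlap. Per coding length the ratio was 0.560 ± 0.0163 and 0.532 ± 0.0174 and the ranges did overlap. The kinase to phosphatase balance was therefore lower on average by both lengths, but only the joined exon length kept the lines apart.

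**Figure D2:**
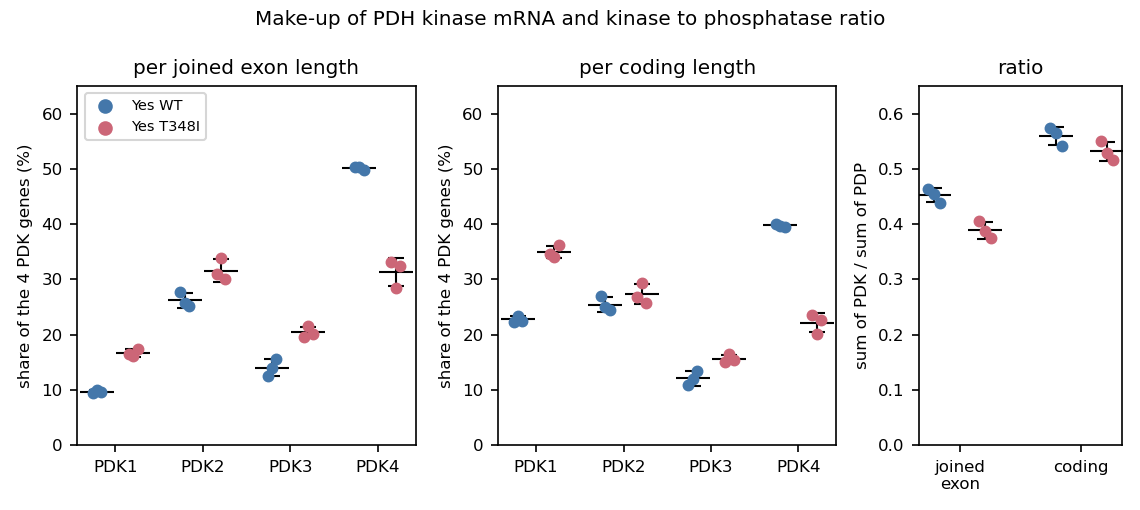
Share of each gene in the 4 kinase messages (left and middle, percent) and the ratio of summed kinase to summed phosphatase message (right), per joined exon length or per coding length, for each library with the mean and SD of 3. The PDK4 share is lower in Yes T348I by either length, and the ratio separates the lines only by joined exon length.

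The coding sequences of the 4 kinases are 66.1% to 70.9% identical to each other in aligned bases, PDK1 and PDK3 being the closest pair, and those of PDP1 and PDP2 are 61.5% identical. No 50-base stretch of the longest coding transcripts of PDK4 or PDP1 occurs in a transcript of another gene, and 0.471% to 2.28% of those of PDK3, PDK1 and PDP2 do. At that length few reads of a member other than PDK2 could fit another gene.

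The genes whose levels followed a member most closely were found by Pearson's r of log2 CPM over the 6 libraries among 9626 genes of at least 10 CPM. For PDK4 they were AHSA2P and SCD, the stearoyl-CoA desaturase (r = 0.9996 each), and the mean of SCD was 2666 CPM in the Yes WT line against 1904 CPM with Yes T348I. For PDP1 they were LIPH (0.9997) and ZCCHC24 (0.9991), for PDP2 TTC28 (0.9992) and TFDP2 (0.999), and for PDK2 ZFP90 (0.9971) and ZNF302 (0.9963). PDK3 was followed best by NR3C1, the glucocorticoid receptor gene (0.9991), and COX15 (0.9901), and PDK1 by OSTF1 (0.9854) and SH3BP5 (0.9804). The libraries form 2 groups that carry most of each r for members that differed: 1228 genes had an r above 0.95 with PDK4 and only 10 with PDK1. For every member, PDK3 and PDK1 included, these are the highest r of 9626 genes over only 6 libraries. Such a search can give a high r by selection alone, so no link between the genes is read from it.

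The complex that these enzymes act on did not move as 1 block. Of 7 listed PDH complex genes 6 were tested, and 3 were higher and 2 lower in Yes T348I in edgeR (28% and 27.3% of all genes), with a median log2 fold change of 0.08. PDHA1, the E1 alpha subunit that PDKs phosphorylate, rose from 168 ± 6.12 to 194 ± 4.92 CPM (SD, n = 3 each). Its log2 fold change was 0.21 (SE 0.04, adjusted p = 3.67e-06 in edgeR). DLAT, the E2 core to which PDKs bind, rose by 0.29 (SE 0.04, edgeR adjusted p = 6.04e-08). PDPR, the regulatory subunit of PDP1, fell by 0.31 on the log2 scale (SE 0.05, edgeR adjusted p = 8.00e-07), but 38.3% of its 50-base stretches occur in other genes and its count is uncertain. Outside the naming rule and picked after their values were seen, the E3 gene DLD rose by 0.16 (SE 0.04), the E1 beta gene PDHB fell by 0.23 (SE 0.05), PDHX had a log2 fold change of -0.01 (SE 0.05), and PDHA2 was not tested.

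Import of pyruvate and attachment of lipoate, which E2 needs to work, held 11 tested genes of 12, with 4 higher and 2 lower (28% and 27.3% of all genes) and a median log2 fold change of 0.06. GLRX5 and BOLA3, of mitochondrial iron-sulfur cluster assembly, rose by 0.41 (SE 0.04) and 0.44 (SE 0.08), and the scaffold gene ISCU fell by 0.29 (SE 0.06). Beyond the naming rule, NFU1 rose by 0.21 (SE 0.07) and the pyruvate carrier gene MPC2 fell by 0.16 (SE 0.04). Its partner MPC1 rose by 0.23 (SE 0.09), a call lost under 5 of 14 alternatives, among them leaving out Yes WT replicate 1 (0.21, adjusted p = 0.078 in edgeR) or Yes T348I replicate 3 (0.20, adjusted p = 0.10).

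The sister enzymes for branched-chain and 2-oxoglutarate acids and their own kinase and phosphatase had 7 tested genes of 8, with 2 higher and 3 lower (28% and 27.3% of all genes) and a median of -0.14. OGDH and DLST rose by only 0.13 (SE 0.04) and 0.12 (SE 0.04), and OGDHL fell by 0.56 (SE 0.13) from 6.87 CPM. Picked after its value was seen, BCKDK, the related kinase of the branched-chain complex, was at 52.1 ± 0.709 and 51.9 ± 3.37 CPM (SD, n = 3 each), with -0.0027 as its log2 fold change (SE 0.05). Its phosphatase gene PPM1K had a log2 fold change of -0.25 (SE 0.17) and passed without Yes WT replicate 2 (-0.42), and BCKDHB and DBT fell by 0.24 (SE 0.09) and 0.14 (SE 0.06). These last calls were weak: BCKDHB did not pass without Yes WT replicate 1 (-0.11), DBT did not without Yes WT replicate 3 (-0.07) or any 1 of the Yes T348I libraries (-0.15 to -0.12), and DLST did not without Yes T348I replicate 1 (0.09).

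Of 10 tested genes for the other fates of pyruvate, 4 were higher and 3 lower (28% and 27.3% of all genes), with a median of -0.01. PC, pyruvate carboxylase, which makes oxaloacetate from pyruvate, fell from 31.5 ± 0.865 to 18.1 ± 0.594 CPM (SD, n = 3 each). Its log2 fold change was -0.80 (SE 0.07, adjusted p = 1.09e-13 in edgeR). SLC16A1, the lactate and pyruvate transporter MCT1, rose by 0.39 (SE 0.04) and the malic enzyme gene ME2 by 0.26 (SE 0.04). Named after its value was seen, LDHA, which makes lactate, was at 2057 ± 55.7 and 1947 ± 37.0 CPM and fell by 0.08 (SE 0.03, edgeR adjusted p = 0.042). That call was lost under 8 of 14 alternatives, 5 of them with 1 library left out (any but Yes T348I replicate 2, at -0.09 to -0.06). GPT2 and ME3 rose by 0.27 (SE 0.06) and 0.39 (SE 0.08), and ME1 fell by 0.23 (SE 0.04), also named after their values were seen.

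Of 16 listed transcription factors known to act on PDK genes 15 were tested. In edgeR 3 were higher and 7 lower (28% and 27.3% of all genes), with a median log2 fold change of -0.12. The HIF subunit genes EPAS1 and HIF1A fell by 0.58 (SE 0.04, edgeR adjusted p = 2.10e-17) and 0.35 (SE 0.03), and MYC rose from 125 ± 2.69 to 176 ± 6.18 CPM (SD, n = 3 each). Also higher were PPARG, by 0.28 (SE 0.07), and E2F1, by 0.34 (SE 0.04), both named after their values were seen. FOXO1, FOXO3 and FOXO4, named on the same footing, fell by 1.08 (SE 0.11), 0.44 (SE 0.07) and 1.24 (SE 0.18) on the log2 scale. PPARA fell by 0.86 (SE 0.11), while NR3C1 had a log2 fold change of -0.07 (SE 0.04), which passed with upper quartile factors (-0.11) and with library size only (-0.11).

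Other targets of the same factors were listed for comparison, with earlier results of these data known. Of 12 tested FOXO targets other than PDK4, 11 were lower in edgeR and none higher, with 27.3% of all genes lower, and their median log2 fold change was -0.64. CCNG2, a cyclin G, fell from 62.3 ± 4.38 to 26.3 ± 1.99 CPM (SD, n = 3 each). Its log2 fold change was -1.23 (SE 0.06, adjusted p = 3.04e-21 in edgeR). The repressor gene BCL6 fell by 1.17 (SE 0.06) and IRS2, of insulin signalling, by 0.37 (SE 0.04). SESN1, the member of this list with the weakest call, fell by 0.41 (SE 0.16, edgeR adjusted p = 0.029) and did not pass under 6 of 14 alternatives, 4 of them with 1 library left out (Yes WT replicate 1 or 3, Yes T348I replicate 2 or 3, at -0.41 to -0.33). KLF15, the 1 tested FOXO target that did not pass, was at 0.877 and 0.637 CPM, and G6PC1, PCK1 and TRIM63 had at most 2 counts in any library.

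Of 16 tested HIF targets other than PDK1, 5 were higher and 7 lower (28% and 27.3% of all genes), with a median of 0.02. NDRG1 fell from 81.8 ± 4.56 to 30.9 ± 1.96 CPM (SD, n = 3 each) and MXI1 by 0.69 (SE 0.06), while ADM, adrenomedullin, rose by 0.50 (SE 0.05). The others that rose, picked after their values were seen, were BNIP3, EGLN1, PFKFB3 and SLC2A1, by 0.15 to 0.34. Among those that fell, also picked afterwards, BNIP3L (-0.27), KDM3A (-0.35) and PFKFB4 (-0.41) kept their calls under all 14 alternatives. The calls of P4HA2 (-0.14) and INSIG2 (-0.20) were lost under 6 and 7 of 14. With 1 library left out, P4HA2 did not pass without Yes WT replicate 1 or 2 or Yes T348I replicate 2 (-0.13 to -0.10), and INSIG2 passed only without Yes WT replicate 2. PPAR targets and genes of fatty acid oxidation had 4 of 16 tested higher and 6 lower (28% and 27.3% of all genes), with a median of -0.17. PLIN2, a coat protein of lipid droplets, fell from 346 ± 11.3 to 224 ± 5.48 CPM (SD, n = 3 each), and CPT1A, of mitochondrial fatty acid oxidation, fell by 0.31 (SE 0.04). ANGPTL4, often induced together with PDK4 by PPAR ligands and picked after its value was seen, rose by 0.56 (SE 0.08). UCP2 and ACADM, named in the same way, rose by 0.39 (SE 0.07) and 0.21 (SE 0.05), and HADH rose by 0.17 (SE 0.06), a call lost under 5 of 14 alternatives, among them leaving out Yes WT replicate 1 (0.14) or Yes T348I replicate 1 (0.15).

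**Figure D3:**
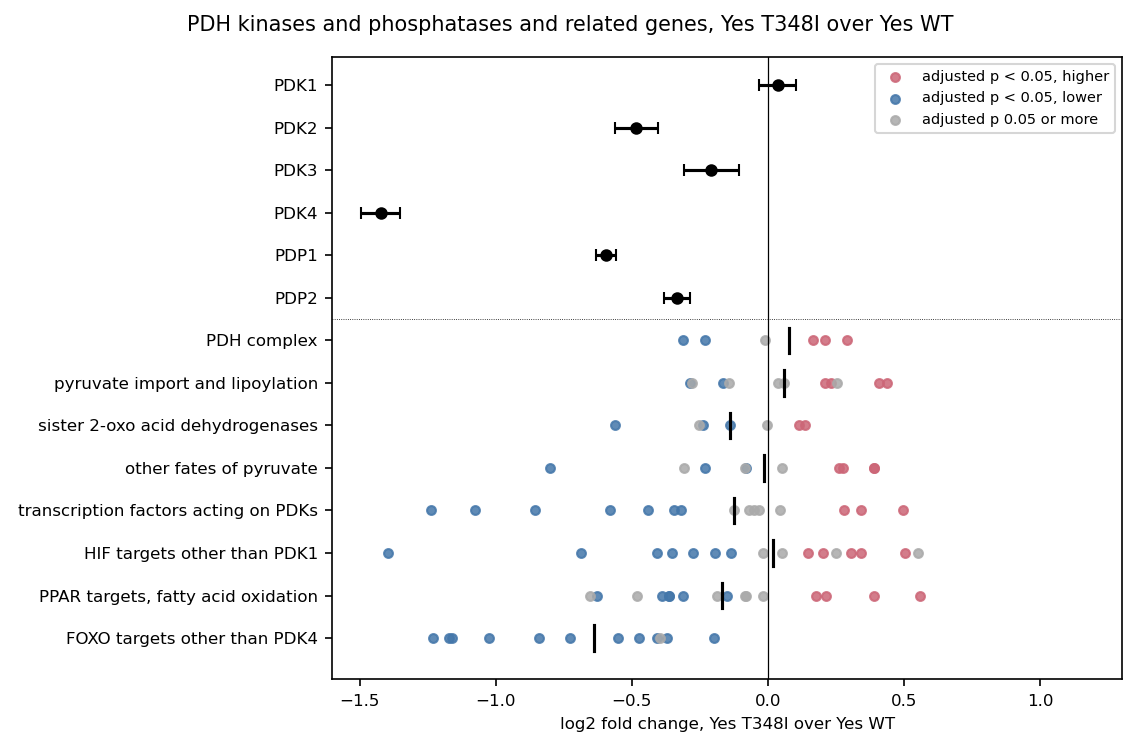
Log2 fold change of Yes T348I over Yes WT (x axis) for the 6 members (black, with SE) and for each tested gene of the 8 related lists (1 point a gene, coloured by its edgeR adjusted p, with a bar at the list median). Points of the FOXO target list all lie below 0, and those of the other lists lie on both sides.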

How the data were processed

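RNA was measured by strand-specific sequencing of polyA RNA in 6 libraries, with groups and replicate numbers from the sample titles. The authors deposited raw counts of reads per gene. STAR 2.5.1b, Trimmomatic 0.35, CASAVA 1.8.2 and the GRCh38 build are listed, without roles, in the submitters' processing notes, and no annotation release was found there. The reverse-strand counts were used, since forward counts were 6.13% to 6.59% of them. Of the reads on that strand, 6.37% to 7.87% fell on no gene and 3.11% to 3.15% on several. Multiply mapped reads were not counted. GENCODE release 29 gave positions and lengths.

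The test was run with edgeR 4.0.16 in R 4.3.3 (filterByExpr with minimum count 10, TMM, quasi-likelihood test, no covariate, Benjamini-Hochberg over 14723 genes, threshold 0.05). SE is of the log2 fold change. It was checked on simulated data. Libraries of a group always differed by more than counting noise (chi-square per degree of freedom 1.48 to 5.27). The alternatives, among them DESeq2 1.42.0 and limma 3.58.1, are in the closing section.

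The members and lists were chosen with earlier results of these data known. Named are the members, YES1, up to 3 genes of each list with the lowest adjusted p, genes overlapping a member with counts, and for each member the 2 genes with the highest r (log2 CPM, prior count 2). Other genes were named after their values were seen. Genes withheld from the text are not reported here, though the counts over lists include them.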

Additional observations from a re-analysis of the deposited data

How the results depend on the processing

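The log2 fold changes of the 6 members moved by less than the spread between replicates under all 14 alternatives, except that PDP2 went to -0.37 both with library size only and with upper quartile factors. Over the 14, PDK2 was at -0.54 to -0.43, PDK4 at -1.48 to -1.37, PDP1 at -0.64 to -0.57, PDP2 at -0.37 to -0.31 and PDK3 at -0.28 to -0.13. With the replicate number as a block, 4054 genes were higher and 3936 lower, against 4123 and 4024 without it. Same-numbered libraries did not deviate together (correlations of -0.028, 0.001 and -0.019), so no pairing by number was seen. That cannot tell whether same-numbered libraries were grown or prepared together, which the labels do not say. The log2 fold change of PDK4 was -1.42 with the block. Genes called higher over all genes numbered 3522 to 4316 and lower 3134 to 4626 over the alternatives. Among related lists, the sister dehydrogenases had 1 higher with library size only, 1 with upper quartile factors and 1 to 2 with 1 library left out, and 1 lower with the DESeq2 Wald test. Pyruvate import and lipoylation had 4 lower with upper quartile factors and 1 with the unstranded column. 

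Shares of the kinase messages depend on length and column, as given here for Yes WT and then Yes T348I. Per coding length PDK1 was 22.7% and 34.9%, PDK3 12.1% and 15.6%, PDK4 39.8% and 22.1%, PDP1 of the phosphatases 70.3% and 66.3%, the ratio 0.560 and 0.532, and PDK2 27.3% in Yes T348I. Without length PDK1 was 24.6% and 37.4%, PDK2 24.6% and 26.1%, PDK3 11.9% and 15.2%, PDK4 38.8% and 21.3%, PDP1 71.5% and 67.7%, and the ratio 0.427 and 0.412. With the unstranded column PDK1 was 10.4% and 18.4%, PDK2 18.2% and 23.1%, PDK3 15.6% and 23.1%, PDK4 55.8% and 35.4%, and the ratio 0.407 and 0.344. PDK3, on 124 to 175 counts per library, is the member whose precision depth limits most.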
